A study of Mus musculus with 12 samples.

Results

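The genes described here are 10 genes of fibroblast growth factor (Fgf) signaling, of 25514 genes counted in proximal tubule (PT) cells. They were chosen by name, with earlier results of these data known, as 3 ligands (Fgf1, Fgf2, Fgf7), 3 receptors (Fgfr1, Fgfr3, Fgfr4) and 4 feedback genes (Spry1, Spry2, Spry4, Dusp6). For each gene, the transcript with the most counts over all libraries was used. RNA was sequenced from PT cells of Tgfbr2 floxed mice that also carried the Immorto-mouse transgene, a heat-labile T antigen that the labels write as H2ts6. All cells were conditionally immortalized, grown at 33 °C with interferon gamma and 2.5% serum, and moved to 37 °C for 5 days before the experiment. Per the methods, interferon gamma was taken away at this move. TβRIIflox/flox PT cells kept the receptor, and TβRII-/- PT cells had been made from them by adenoviral Cre in culture. Each genotype was sequenced untreated, in its culture medium, and after 24 h of H2O2 in serum-free medium, before which the methods describe 24 h without serum, which gave 4 groups of 3 libraries. The labels give the dose as 200 mM, whereas the methods give the same number in micromolar. H2O2 and the loss of serum cannot be told apart in these groups. Neither the labels nor the methods name more than 1 cell line per genotype. The deletion and whatever else separates the cells of the genotypes therefore cannot be told apart either. The labels do not say whether the libraries came from separate cultures, and p values measure only the spread between libraries. The methods give an age of 8 to 12 weeks for male mice of the animal models, and for the cells they say only that the mice were male.

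Fgf ligands bind Fgf receptors, which are receptor tyrosine kinases, together with heparan sulfate chains on the cell surface. The active receptor signals through adaptors to Ras and the kinase Erk. Erk induces Sprouty proteins and the phosphatase Dusp6, which dampen the same pathway, so their mRNAs are often read as a record of recent signaling. In the kidney, Fgf signals are known for their part in the growth and branching of the developing collecting system and in the repair of injured tubules.

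Gene counts summed to between 15870155 and 20857618 per library (median 17476242), and 12971 genes had enough counts to be tested with edgeR's quasi-likelihood test in 1 model of all 12 libraries. Calls needed a Benjamini-Hochberg adjusted p under 0.01 over all genes tested and a fold change of at least 1.5. Values below are normalized counts, which are scaled to a library of 17351835 counts, unless they are named otherwise. Tgfbr2 itself was counted in every library, with 7562 to 9248 normalized counts in untreated TβRIIflox/flox and 6358 to 6782 in untreated TβRII-/- PT cells. A whole-transcript count also takes reads outside a deleted part, so these values do not check the deletion. The methods state that immunoblotting and RNAseq were used to verify it. The labelled cell type was only partly borne out by its markers. Slc34a1, Slc22a6, Hnf4a and Slc13a3 had at most 3 counts in every library, whereas Lrp2, the gene of megalin, had 17280 ± 2656 normalized counts in untreated TβRIIflox/flox PT cells (SD, n = 3). The genotypes also differed in epithelial markers. Epcam and Cdh1 had at most 3 counts in any library of untreated TβRIIflox/flox PT cells and Esrp1 had 0, whereas they had 664 ± 57.3, 1111 ± 62.8 and 233 ± 11.6 normalized counts in untreated TβRII-/- PT cells (SD, n = 3). The summed level of the 7 listed epithelial markers was between 452 and 487 CPM (counts scaled to depth) in untreated TβRIIflox/flox and between 984 and 1011 in untreated TβRII-/- PT cells. Of the 7, Cldn7 was at 0 in both. With H2O2 the sums were between 363 and 374 and between 842 and 868. For 8 listed fibroblast and mesenchyme markers the sums in untreated cells were between 800 and 862 and between 658 and 723, with Lum and Thy1 at 0 in both genotypes. The 10 listed PT markers summed to between 1321 and 1658 and between 944 and 1007 CPM in untreated TβRIIflox/flox and TβRII-/- PT cells, and 5 podocyte markers to between 174 and 189 and between 61.2 and 65.0. For 6 leukocyte markers the sums were between 52.2 and 62.1 and between 54.6 and 56.3, with Adgre1 and Cd3e at 0, and for 6 endothelial markers between 7.38 and 8.18 and between 27.3 and 33.9. The part of these differences in the results below was not tested.

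Of the 10 genes, 8 could be tested. Fgf2 and Fgfr4 had too few counts. Fgf2, a ligand that binds several Fgf receptors, had counts of 4, 1 and 2 in untreated TβRIIflox/flox, of 0, 0 and 3 in untreated TβRII-/-, of 6, 5 and 0 in H2O2-treated TβRIIflox/flox and of 0, 2 and 2 in H2O2-treated TβRII-/- PT cells. Part of Fgf2 is overlapped by another gene, Nudt6. Fgfr4, a receptor known in liver for its response to Fgf19-type hormones, had counts of 2, 2 and 1, of 4, 3 and 1, of 1, 7 and 2 and of 7, 0 and 2 in the same groups. The groups overlapped for both genes, and a count of 0 at this depth allows up to 3 counts. A difference was therefore not detectable for either gene at this depth.

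In untreated cells, TβRII-/- PT cells had more Fgfr3, Spry4 and Dusp6 mRNA and less Fgfr1 mRNA than TβRIIflox/flox PT cells. The largest of these differences was the 7.57-fold higher level of Fgfr3. Called genes made up 4 of the 8 tested, beside 26.6% of all genes tested. Of the 8, 3 were higher, beside 15.5% of all genes, and 1 was lower, beside 11.1%. The median log2 fold change over the 8 was 0.20, and that of all genes tested was 0.01. With H2O2 in both genotypes, 6 of the 8 were called, beside 29.4% of all genes. Fgfr3, Spry4, Dusp6, Spry2 and Fgf1 were then the 5 higher genes, beside 16.6% of all genes, and Fgfr1 was the 1 lower gene, beside 12.8%. The median of the 8 was 0.84, and that of all genes tested was 0.02. At an adjusted p under 0.05 with no fold change limit, 6 of the 8 passed between untreated genotypes, beside 64.7% of all genes, and 7 between H2O2-treated ones, beside 66.4%. In bulk RNA, fewer cells of a type and less RNA per cell cannot be told apart.

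**Figure D1:**
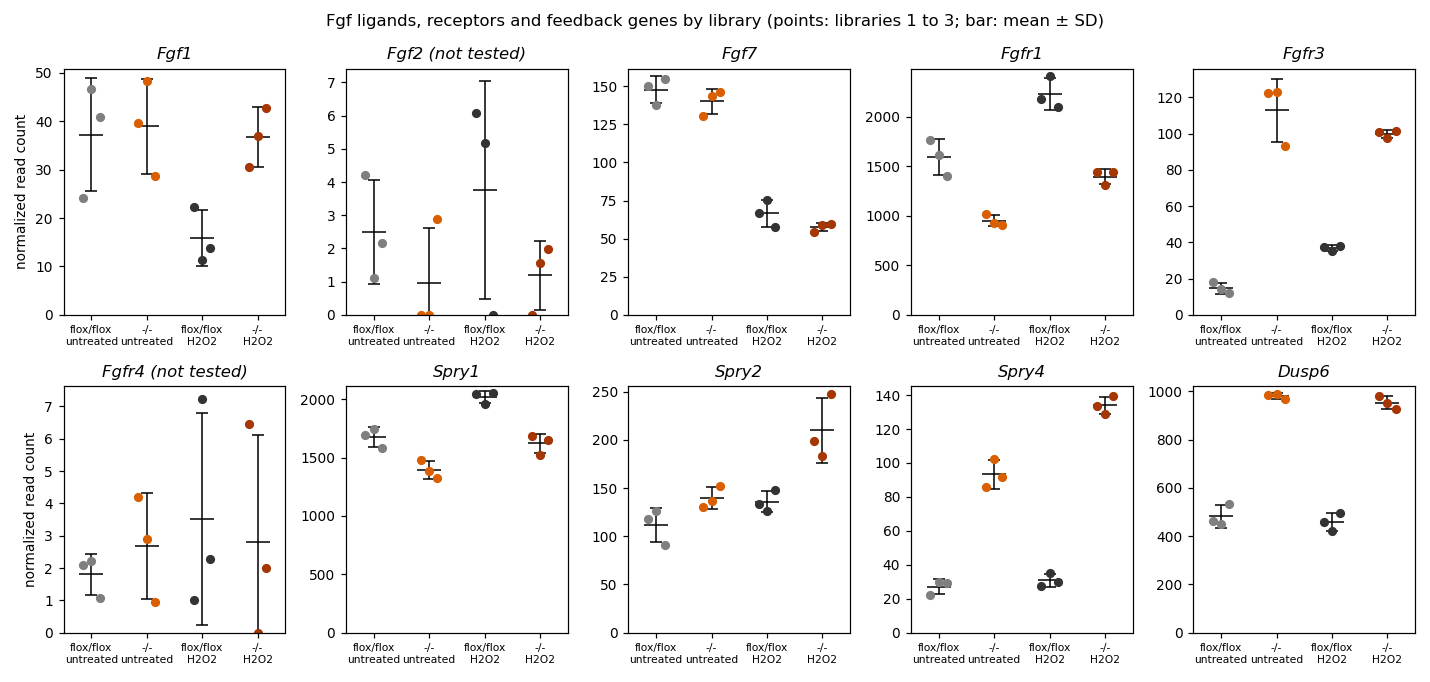
Normalized read counts (y axis, linear and from 0, a scale for each gene) of the 10 genes in the 4 groups (x axis), with a point for each library and a bar for mean ± SD of 3 libraries. The TβRII-/- libraries lie above the TβRIIflox/flox libraries of the same treatment for Fgfr3, Spry4 and Dusp6 and below them for Fgfr1, and Fgf2 and Fgfr4 stay under 8 throughout.

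The ligands were not called between untreated genotypes. Fgf7, also called keratinocyte growth factor, is typically made by mesenchyme and acts on epithelial cells. It was counted on ENSMUST00000064794 (chr2:126034658-126091185 of GRCm38.p6), within the span of another gene, Fam227b. Fgf7 had 150, 138 and 155 normalized counts in untreated TβRIIflox/flox and 131, 143 and 146 in untreated TβRII-/- PT cells. The libraries overlapped, and the log2 fold change was −0.08 (95% interval −0.34 to 0.18). Fgf1, a ligand that binds all Fgf receptors, was counted on ENSMUST00000040647, whose total was equalled by another of its transcripts. The gene lies within the span of Arhgap26. It had 24.2, 46.7 and 40.9 normalized counts in untreated TβRIIflox/flox and 39.7, 48.4 and 28.7 in untreated TβRII-/- PT cells. These libraries overlapped as well, and the log2 fold change was 0.07 (95% interval −0.48 to 0.61).

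The receptors moved in opposite directions between genotypes. Fgfr1, a receptor that is common in mesenchyme, was counted on ENSMUST00000084027 (chr8:25518759-25575718 of GRCm38.p6). Part of its span is overlapped by other genes, Gm31288 and Gm16159. Fgfr1 had 1767, 1616 and 1398 normalized counts in untreated TβRIIflox/flox PT cells and 1018, 929 and 907 in untreated TβRII-/- PT cells. The groups did not overlap, and every TβRII-/- library was lower. The log2 fold change was −0.75 ± 0.07 (SE), with an adjusted p = 2.31e-10 in edgeR. With H2O2 Fgfr1 had 2174, 2410 and 2100 normalized counts in TβRIIflox/flox and 1438, 1311 and 1438 in TβRII-/- PT cells. Again the TβRII-/- libraries were all lower (log2 fold change −0.68 ± 0.07 SE, adjusted p = 6.63e-10 in edgeR).

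Fgfr3, a receptor of epithelia and cartilage, was counted on ENSMUST00000067150 (chr5:33721724-33737068 of GRCm38.p6). Another pair of its annotated transcripts had the same total, so the counts do not tell its splice forms apart. Fgfr3 had 17.9, 14.5 and 11.8 normalized counts in untreated TβRIIflox/flox PT cells and 122, 123 and 92.9 in untreated TβRII-/- PT cells. The lowest TβRII-/- library was far above the highest TβRIIflox/flox library. The log2 fold change was 2.92 ± 0.22 (SE), with an adjusted p = 1.78e-13 in edgeR, and with each library left out or another setting it was between 2.78 and 3.08. With H2O2 Fgfr3 had 37.5, 35.1 and 37.8 normalized counts in TβRIIflox/flox and 101, 97.5 and 101 in TβRII-/- PT cells. The groups stayed apart at a smaller distance, with a 2.70-fold higher level in TβRII-/- PT cells (log2 fold change 1.44 ± 0.18 SE, adjusted p = 2.55e-08 in edgeR).

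The bases just before the annotated start of Fgfr3 are shown because it had the largest difference of the 10 genes. The 250 bases come from RefSeq (chr5:33721474-33721723 of GRCm38.p6, plus strand), with 66.8% of them G or C.
Fgfr3: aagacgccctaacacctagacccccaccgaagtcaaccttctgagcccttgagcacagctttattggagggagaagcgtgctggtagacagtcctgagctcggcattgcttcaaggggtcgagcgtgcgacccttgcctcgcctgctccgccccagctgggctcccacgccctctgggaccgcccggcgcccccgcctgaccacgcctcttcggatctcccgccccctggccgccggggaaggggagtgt
Not all of the 10 genes were included in this search, and the entries of 7 were used. They were searched on both strands for an Ets motif (CGGAAG), an AP-1 motif (TGANTCA) and the E-box of the Zeb and Snail factors (CACCTG), which do not overlap one another as written. In windows of the same length before 32851 annotated starts, the Ets motif was present in 13.6%, the AP-1 motif in 6.75% and the E-box in 17.2%. The table held another Fgfr3 start as well. Neither of its windows matched any of the motifs, and a match or its absence is only a description of the sequence.

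Per length of transcript, the receptor pool was dominated by Fgfr2, which is not among the 10 genes. Fgfr2 is known as the usual Fgf7 receptor of epithelia. A read is counted on every transcript that it overlaps, so the counts do not tell the splice forms of Fgfr2 apart. Whether the Fgfr2 forms in either genotype bind Fgf7 was not tested. Values per kilobase of transcript and per sequencing depth (RPKM) allow genes to be compared with one another. In untreated TβRIIflox/flox PT cells Fgfr2 held 69.7 ± 1.06% of the summed RPKM of the 4 receptors, Fgfr1 29.8 ± 1.0%, Fgfr3 0.399 ± 0.05% and Fgfr4 0.0615 ± 0.0178% (SD, n = 3). In untreated TβRII-/- PT cells the shares were 76.1 ± 0.04%, 20.3 ± 0.42%, 3.5 ± 0.37% and 0.103 ± 0.0577%. Fgfr3 therefore stayed a small part of the pool even where it was highest. The ratio of Fgfr1 to Fgfr3 per length was 67.9, 76.7 and 81.2 in the untreated TβRIIflox/flox libraries and 5.71, 5.19 and 6.70 in the untreated TβRII-/- libraries. With H2O2 the ratio was 39.8, 47.1 and 38.1 in TβRIIflox/flox and 9.82, 9.23 and 9.74 in TβRII-/- PT cells. No 2 of the 4 groups overlapped in this ratio. Fgfr2 itself was not called in any comparison, with log2 fold changes between genotypes of −0.06 in untreated cells and −0.27 with H2O2.

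**Figure D2:**
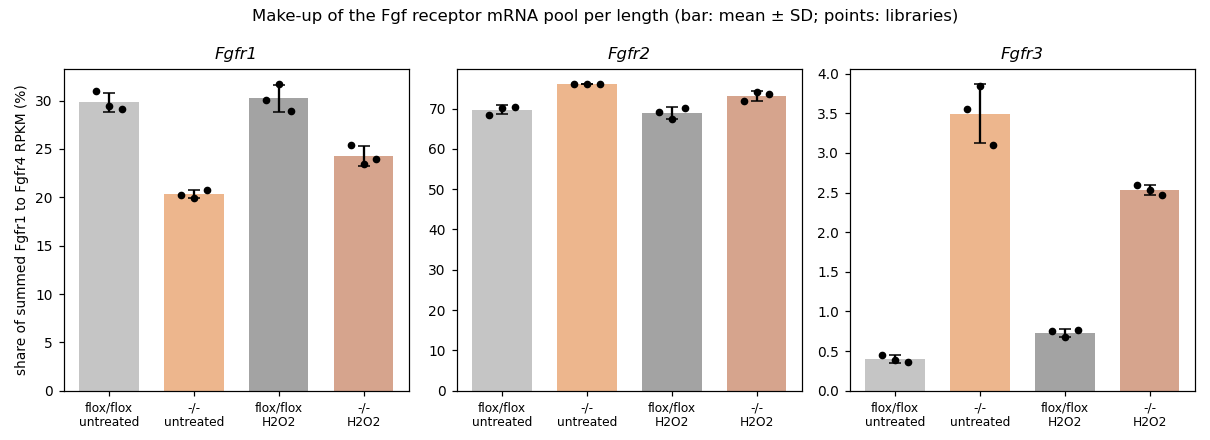
Shares of Fgfr1, Fgfr2 and Fgfr3 in the summed RPKM of Fgfr1 to Fgfr4 (y axis in percent, from 0, with its own scale in each panel) for the 4 groups (x axis), with bars for mean ± SD and points for 3 libraries. Fgfr1 holds 29.8% in untreated TβRIIflox/flox and 20.3% in untreated TβRII-/- PT cells, and Fgfr3 holds 0.399% and 3.5%.

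Of the feedback genes, Spry4 and Dusp6 were higher in TβRII-/- PT cells under both conditions, whereas Spry1 was not called. Dusp6, a cytoplasmic phosphatase that acts on Erk, was counted on ENSMUST00000020118 (chr10:99263231-99267489 of GRCm38.p6). Part of its span is overlapped by another gene, Gm34921. Dusp6 had 462, 448 and 534 normalized counts in untreated TβRIIflox/flox PT cells and 986, 987 and 966 in untreated TβRII-/- PT cells. Every TβRII-/- library was higher, and the groups did not overlap. The fold change was 2.03 (log2 fold change 1.02 ± 0.07 SE, adjusted p = 7.61e-14 in edgeR). With H2O2 Dusp6 had 458, 422 and 494 normalized counts in TβRIIflox/flox and 979, 950 and 926 in TβRII-/- PT cells. The difference between genotypes was of much the same size (log2 fold change 1.06 ± 0.07 SE, adjusted p = 3.13e-14 in edgeR).

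The 250 bases before the start of Dusp6 (chr10:99262981-99263230 of GRCm38.p6, plus strand, from RefSeq) are shown because they held a match to the Ets motif. It was the single match among the 7 genes searched, and Fgf1, Fgfr1 and Spry4 were not searched. Capitals mark the Ets motif, here on the opposite strand, at bases 189 to 194 of the window.
Dusp6: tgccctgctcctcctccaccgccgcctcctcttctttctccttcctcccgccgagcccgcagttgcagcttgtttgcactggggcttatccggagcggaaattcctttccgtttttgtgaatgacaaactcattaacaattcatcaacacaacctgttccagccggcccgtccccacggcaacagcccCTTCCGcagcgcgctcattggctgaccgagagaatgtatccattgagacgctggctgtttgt
The motif ended 57 bases before the annotated start. Of 32851 windows of this length, 13.6% hold it, and these data do not say whether any factor binds there.

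Spry4, a Sprouty protein that inhibits the path from receptor tyrosine kinases to Ras, was counted on ENSMUST00000025295. It had 22.1, 30.0 and 29.0 normalized counts in untreated TβRIIflox/flox PT cells and 85.8, 103 and 91.9 in untreated TβRII-/- PT cells. The groups did not overlap (log2 fold change 1.79 ± 0.19 SE, adjusted p = 9.66e-10 in edgeR). With H2O2 the values were 27.4, 35.1 and 29.8 in TβRIIflox/flox and 134, 129 and 139 in TβRII-/- PT cells. Every TβRII-/- library was again higher, 4.33-fold on the fitted scale (log2 fold change 2.12 ± 0.17 SE, adjusted p = 2.36e-12 in edgeR).

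Spry2, a Sprouty protein with a like role, had 118, 126 and 91.4 normalized counts in untreated TβRIIflox/flox and 131, 137 and 152 in untreated TβRII-/- PT cells. The libraries did not overlap, but the difference was not called (log2 fold change 0.33 ± 0.14 SE, adjusted p = 0.0463 in edgeR). With H2O2 Spry2 had 134, 126 and 148 normalized counts in TβRIIflox/flox and 198, 183 and 248 in TβRII-/- PT cells. All TβRII-/- libraries were higher, and the gene was called at a fold change of 1.54, just above the limit (log2 fold change 0.62 ± 0.13 SE, adjusted p = 1.03e-04 in edgeR). The fold change dropped under the limit without replicate 1 (log2 fold change 0.58) or 2 (0.54) of H2O2-treated TβRIIflox/flox PT cells, or without replicate 3 of H2O2-treated TβRII-/- PT cells (0.49).

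Spry1, the Sprouty gene known for restraining Ret signaling in the developing kidney, was the most abundant of the 10 genes per length in all 4 groups. It had 1694, 1746 and 1583 normalized counts in untreated TβRIIflox/flox and 1477, 1386 and 1324 in untreated TβRII-/- PT cells. The groups did not overlap, and the adjusted p was small, but the difference was under the fold change limit (log2 fold change −0.26 ± 0.06 SE, adjusted p = 4.15e-04 in edgeR). With H2O2 Spry1 had 2043, 1959 and 2054 normalized counts in TβRIIflox/flox and 1686, 1525 and 1651 in TβRII-/- PT cells. This difference also stayed under the limit (log2 fold change −0.32 ± 0.06 SE, adjusted p = 2.80e-05 in edgeR). The 4 feedback genes thus differed from one another, with fitted differences in untreated cells that ran from −0.26 for Spry1 to 1.79 for Spry4.

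**Figure D3:**
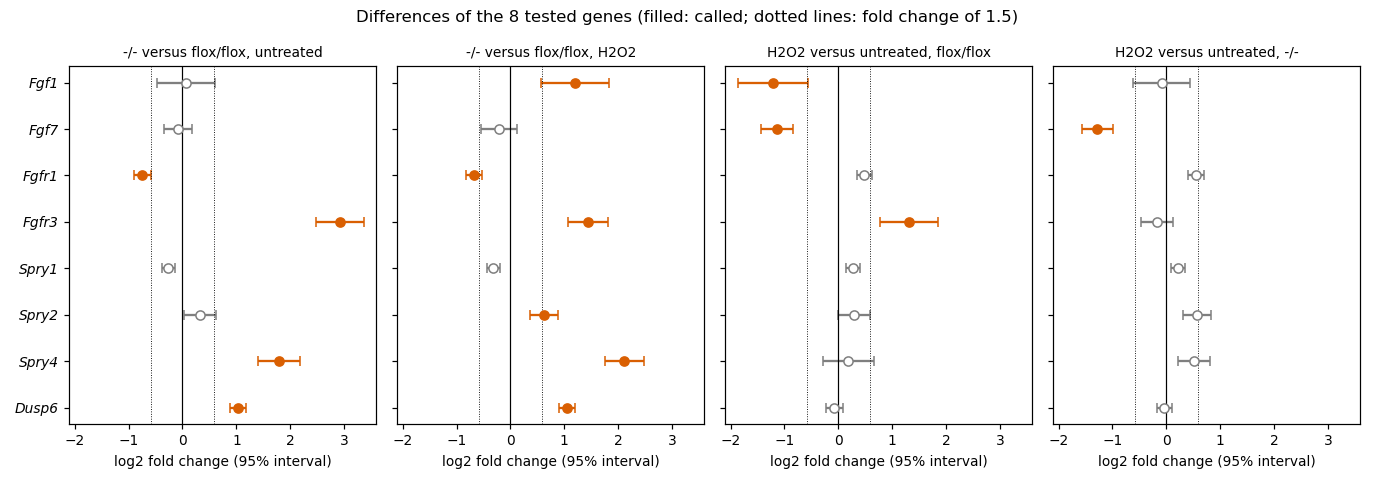
Log2 fold changes (x axis) of the 8 tested genes in the 4 comparisons (panels), with 95% intervals from edgeR, filled points for called genes and dotted lines at a fold change of 1.5. Fgfr3, Spry4 and Dusp6 lie to the right and Fgfr1 to the left in both comparisons of genotypes, and Fgf7 lies to the left in both H2O2 comparisons.

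H2O2 in serum-free medium was then compared with no treatment in each genotype. In TβRIIflox/flox PT cells Fgf7 and Fgf1 fell and Fgfr3 rose. These 3 of the 8 tested genes stood beside 6.71% of all genes tested, with 2 lower beside 2.27% and 1 higher beside 4.43%. The median log2 fold change over the 8 was 0.23, and that of all genes tested was 0.01. Fgf7 also fell in TβRII-/- PT cells and was the 1 called gene of the 8, beside 6.92% of all genes in either direction and 3.26% lower. None of the 8 was called higher by edgeR or by DESeq2, beside 3.66% of all genes. The 4 genes Fgfr1, Spry1, Spry2 and Spry4 had positive log2 fold changes and unadjusted p values under 0.05 in edgeR, with fold changes under the limit. Such p values were found for 47.4% of all genes. The median was 0.09, and that of all genes tested was 0.02. At an adjusted p under 0.05 with no fold change limit, 5 of the 8 passed in each genotype, beside 41.6% of all genes in TβRIIflox/flox and 39.6% in TβRII-/- PT cells. The comparisons of treatment and of genotype share libraries and are not independent of one another.

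Fgf7 fell in both genotypes. With H2O2 it had 67.0, 75.4 and 57.3 normalized counts in TβRIIflox/flox PT cells, all under the untreated values of 138 to 155. The log2 fold change was −1.14 ± 0.14 (SE), with an adjusted p = 1.57e-07 in edgeR. In TβRII-/- PT cells it had 54.5, 59.0 and 59.7 normalized counts with H2O2, all under the untreated values of 131 to 146. The log2 fold change was −1.28 ± 0.14 (SE), with an adjusted p = 1.68e-08 in edgeR. The responses of the genotypes differed by −0.13 on the log2 scale (95% interval −0.56 to 0.29). Between H2O2-treated genotypes Fgf7 overlapped, with a log2 fold change of −0.21 (95% interval −0.54 to 0.12).

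Fgf1 had 22.3, 11.4 and 13.8 normalized counts in H2O2-treated TβRIIflox/flox PT cells, all under the 24.2 to 46.7 of untreated cells. The fall was called (log2 fold change −1.22 ± 0.32 SE, adjusted p = 0.00263 in edgeR), but rested on 103 untreated and 45 treated counts in all. In TβRII-/- PT cells Fgf1 had 30.5, 37.0 and 42.8 normalized counts with H2O2, within the range of the untreated libraries (log2 fold change −0.09, 95% interval −0.61 to 0.44). Between H2O2-treated genotypes it was 2.29-fold higher in TβRII-/- PT cells (log2 fold change 1.20 ± 0.31 SE, adjusted p = 0.00113 in edgeR). The difference between the responses was itself not called (1.13 on the log2 scale, standard error 0.41, edgeR adjusted p = 0.0773). Single libraries decided these calls. The fall lost its call without replicate 2 (edgeR adjusted p = 0.0269) or 3 (0.0128) of untreated TβRIIflox/flox PT cells and without replicate 2 (0.0254) or 3 (0.0162) of H2O2-treated ones. The difference between H2O2-treated genotypes lost it without replicate 2 of H2O2-treated TβRIIflox/flox PT cells (edgeR adjusted p = 0.0151), and the interaction gained it without replicate 1 of untreated (0.0242) or of H2O2-treated (0.0434) TβRIIflox/flox PT cells.

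Fgfr3 rose with H2O2 in TβRIIflox/flox PT cells, where all 3 treated libraries (35.1 to 37.8) were above the untreated ones (11.8 to 17.9). The log2 fold change was 1.31 ± 0.27 (SE), with an adjusted p = 1.88e-04 in edgeR. Among TβRII-/- PT cells the treated libraries (97.5 to 101) lay within the untreated range of 92.9 to 123, with a log2 fold change of −0.17 (95% interval −0.48 to 0.13). The difference between these responses, tested as an interaction of genotype and treatment with a limit of 0.05 for the adjusted p, was −1.49 ± 0.31 (SE), with an adjusted p = 0.00152 in edgeR. Fgfr3 was the 1 gene of the 8 called for this interaction, beside 10.2% of all genes tested. Without a filter on low counts Fgf1 was called as well, beside 7.97% of all genes. The same untreated TβRIIflox/flox libraries enter the genotype difference in untreated cells, the H2O2 response and the interaction.

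The other receptor tested and the feedback genes had H2O2 differences under the fold change limit. Fgfr1 was 1.40-fold higher in TβRIIflox/flox PT cells (log2 fold change 0.48 ± 0.07 SE, adjusted p = 2.32e-06 in edgeR) and 1.47-fold higher in TβRII-/- PT cells (log2 fold change 0.55 ± 0.07 SE, adjusted p = 5.00e-07 in edgeR). Its treated libraries were above the untreated ones in both genotypes. Within TβRII-/- PT cells it reached the limit without replicate 1 of the untreated (log2 fold change 0.60) or replicate 2 of the treated (0.60) libraries. Spry1 had log2 fold changes of 0.27 in TβRIIflox/flox (edgeR adjusted p = 6.17e-04) and 0.22 in TβRII-/- PT cells (0.00568). Dusp6 had 95% intervals of −0.24 to 0.09 in TβRIIflox/flox and −0.18 to 0.10 in TβRII-/- PT cells around log2 fold changes of −0.07 and −0.04, and its libraries overlapped in both. Spry4 had log2 fold changes of 0.19 (edgeR adjusted p = 0.552) and 0.52 (0.00434), and Spry2 of 0.28 (0.122) and 0.58 (5.91e-04). Spry4 in TβRII-/- PT cells reached the limit without replicate 2 of the untreated libraries (log2 fold change 0.59). Spry2 reached it there without replicate 3 of the untreated libraries (0.64) or replicate 1 (0.61) or 2 (0.67) of the treated ones.

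Per length, the order of the genes within a group also changed. In untreated TβRIIflox/flox PT cells Spry1 led with 32.7 ± 1.62 RPKM, followed by Fgfr1 with 14.9 ± 1.74, Dusp6 with 9.80 ± 0.94, Fgf7 with 2.86 ± 0.17 and Spry2 with 1.99 ± 0.32 (SD, n = 3). Fgf1 (0.507 ± 0.159) and Spry4 (0.328 ± 0.0525) came next with overlapping libraries, then Fgfr3 (0.201 ± 0.0415), and Fgfr4 and Fgf2 were last and overlapped. In untreated TβRII-/- PT cells Spry1 had 27.2 ± 1.5 RPKM and Dusp6, with 19.9 ± 0.24, stood above Fgfr1, with 8.92 ± 0.55. Fgf7 (2.72 ± 0.16) and Spry2 (2.49 ± 0.20) overlapped, and Fgfr3 (1.54 ± 0.23) and Spry4 (1.13 ± 0.10) stood above Fgf1 (0.529 ± 0.134). With H2O2 the top 3 kept their order in each genotype. Spry2 then stood above Fgf7, with 2.42 ± 0.20 against 1.29 ± 0.18 RPKM in TβRIIflox/flox and 3.73 ± 0.60 against 1.12 ± 0.05 in TβRII-/- PT cells, and neither pair of genes overlapped.

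Some of the genes are neighbours in the genome. Fgf2 and Spry1 lie 229.8 kb apart on chromosome 3 with 1 coding gene between them in the annotation. Spry4 and Fgf1 lie 237.3 kb apart on chromosome 18, also with 1 between them. Of the latter pair, Spry4 was 3.45-fold higher in untreated TβRII-/- PT cells, where Fgf1 was not called.

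Over the 12 libraries, the pattern of each gene was also set against 12595 other protein-coding genes by Pearson's r of log2 CPM, as a description. The genes most like Fgfr3 were Tspan14 (r = 0.994) and Tmem51 (0.986), and those most like Spry4 were Septin3 (0.993) and Rgl3 (0.992). For Dusp6 they were B4galt6 (0.996) and Hdgfl3 (0.995), and for Fgfr1 they were Grik5 (0.993) and Man2b2 (0.991). Fgf7 was most like Ppp1r14b (0.978) and Per1 (0.971), Spry1 most like Psd (0.977) and Ltbp3 (0.976), and Spry2 most like Fa2h (0.974) and Ankrd16 (0.957). For Fgf1 they were Uqcrh (0.956) and Klhl9 (0.940). The 12 libraries fall into 4 groups and are not 12 independent points.

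The rest of the pathway was read from 6 lists. Of 19 other Fgf ligands, 3 had enough counts to be tested, and between untreated genotypes 1 was higher and 1 lower in TβRII-/- PT cells, beside 15.5% and 11.1% of all genes. Fgf9, a ligand that keeps nephron progenitors in the embryo, had 1.05, 4.45 and 4.30 normalized counts in untreated TβRIIflox/flox and 30.3, 44.5 and 45 in untreated TβRII-/- PT cells. It was higher in every TβRII-/- library (log2 fold change 3.58 ± 0.43 SE, adjusted p = 8.72e-09 in edgeR). With H2O2 the difference was 4.87, and within TβRII-/- PT cells Fgf9 rose by 0.92 on the log2 scale (edgeR adjusted p = 0.00151). Fgf21, a hormone induced by metabolic stress, went the other way, from 17.9, 22.3 and 19.4 to 4.18, 0 and 8.62 normalized counts (log2 fold change −2.18 ± 0.49 SE, adjusted p = 2.89e-04 in edgeR). In TβRIIflox/flox PT cells it rose with H2O2 to 92.3, 97.1 and 105 (log2 fold change 2.30, edgeR adjusted p = 6.84e-08). For Fgf21 the log2 difference between H2O2-treated genotypes was −3.44.

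Of 6 other receptors, coreceptors and binding proteins, 5 were tested and 2 were higher in untreated TβRII-/- PT cells, beside 15.5% of all genes. Fgfbp1, a secreted protein that carries Fgf ligands off the matrix, had 2.10, 1.11 and 2.15 normalized counts in untreated TβRIIflox/flox and 626, 743 and 656 in untreated TβRII-/- PT cells. On summed counts per depth this was a 376-fold ratio, with a 95% interval of 161 to 1159 that covers counting error only. Kl, the gene of the Fgf23 coreceptor klotho, had 0 counts in all 6 TβRIIflox/flox libraries. In TβRII-/- PT cells it had 9.41, 3.87 and 8.62 normalized counts untreated and 16.6, 17.3 and 14.9 with H2O2, which were at least 2.43-fold and at least 5.43-fold higher against a floor of 3 normalized counts per library. Fgfbp3 was called between H2O2-treated genotypes (log2 fold change 0.74). With H2O2, Fgfbp1 fell in TβRII-/- PT cells by 0.84 on the log2 scale.

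Heparan sulfate proteoglycans and the enzymes of their chains, which Fgf ligands need to bind their receptors, were more often called lower than higher in TβRII-/- PT cells. Of 21 tested, 11 were lower and 1 higher between untreated genotypes, beside 11.1% and 15.5% of all genes, with a median log2 fold change of −0.68. Sdc2, the gene of syndecan-2, had 4022, 4017 and 3449 normalized counts in untreated TβRIIflox/flox and 667, 688 and 655 in untreated TβRII-/- PT cells (log2 fold change −2.51 ± 0.07 SE, adjusted p = 2.67e-25 in edgeR). The glypican genes Gpc6 and Gpc1 had log2 fold changes of −1.5 and −1.22. With H2O2, 12 of the 21 were called lower, beside 12.8% of all genes, and Sdc2, Gpc6 and Gpc1 had log2 fold changes of −2.85, −2.01 and −1.52. H2O2 itself gave 2 higher genes in TβRIIflox/flox PT cells, beside 4.43% of all genes, Glce (0.69) and Gpc2 (0.60). Within TβRII-/- PT cells it gave 1 higher, Gpc2 (0.60), and 1 lower, Gpc6 (−0.78), beside 3.66% and 3.26%.

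Of 23 adaptors and members of the Ras-Erk cascade itself, 2 were higher and 2 lower between untreated genotypes, or 17.4% beside 26.6% of all genes, and the median was −0.05. An unadjusted p under 0.05 in edgeR was reached by 14 of the 23, beside 67.5% of all genes. The adaptor gene Shc1 and the Erk substrate kinase gene Rps6ka1 were both higher by 0.80 on the log2 scale, and Gab1, an adaptor, had a log2 fold change of −0.75. With H2O2, 2 were higher and 1 lower, beside 16.6% and 12.8% of all genes, and 13 had an unadjusted p under 0.05, beside 68.8%. Those called were Rps6ka1 (1.01), Ksr1 (0.76), a scaffold of the cascade, and Cbl (−0.63), a ubiquitin ligase of receptor tyrosine kinases. None of the 23 was called for H2O2 by edgeR or by DESeq2 in either genotype, beside 6.71% and 6.92% of all genes in edgeR. Of the 23, 9 in TβRIIflox/flox and 11 in TβRII-/- PT cells had an unadjusted p under 0.05 in edgeR, beside 49.0% and 47.4% of all genes.

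Of 13 other feedback inhibitors and Flrt genes tested, 6 were higher and 1 lower in untreated TβRII-/- PT cells, beside 15.5% and 11.1% of all genes. The median of the 13 was 0.18. Dusp4, a nuclear phosphatase of the Dusp6 family, had 98.9, 83.5 and 88.2 normalized counts in untreated TβRIIflox/flox and 206, 209 and 190 in untreated TβRII-/- PT cells (log2 fold change 1.16 ± 0.12 SE, adjusted p = 3.13e-10 in edgeR). Flrt1 and Flrt2, which encode membrane proteins that bind Fgf receptors, had log2 fold changes of 3.63 and −3.01. Flrt2 was thus the 1 lower gene. Spred1 (0.75), Spred2 (0.82), Dusp5 (0.74) and Dusp7 (0.77), which restrain Ras or Erk, were also called higher. With H2O2, 5 were higher and 2 lower, beside 16.6% and 12.8% of all genes. Flrt2 was at −3.98, Flrt1 at 3.11 and Dusp4 at 1.44. The 2 lower genes were Flrt2 and Flrt3 (−1.20). H2O2 gave 3 higher genes in TβRIIflox/flox PT cells, beside 4.43% of all genes, among them Il17rd (1.04), the gene of the Fgf inhibitor Sef, and Flrt1 (1.02). The TβRII-/- PT cells had 3 higher, among them Il17rd (0.89) and Dusp4 (0.73), and 1 lower, beside 3.66% and 3.26% of all genes.

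Of 14 genes known as targets of Erk, 7 were higher and 3 lower in untreated TβRII-/- PT cells, beside 15.5% and 11.1% of all genes, with a median of 0.56. Etv1, an Ets factor that Fgf signals induce, had 0 counts in all TβRIIflox/flox libraries and 8.37, 13.6 and 12.4 normalized counts in untreated TβRII-/- PT cells, at least 3.82-fold higher against a floor of 3 normalized counts per library. Its relative Etv4 had 213, 210 and 191 normalized counts in untreated TβRIIflox/flox and 523, 537 and 582 in untreated TβRII-/- PT cells (log2 fold change 1.42 ± 0.09 SE, adjusted p = 1.65e-15 in edgeR). Ccnd1, the gene of cyclin D1, was higher by 2.54. With H2O2, 6 were higher and 4 lower between genotypes, beside 16.6% and 12.8% of all genes, with Etv1 at least 10.6-fold higher, Ccnd1 at a log2 fold change of 3.13 and Epha4, an ephrin receptor gene, at −1.38. The list did not move one way, since Egr1, an immediate early gene that Erk induces, had a log2 fold change of −0.62 in untreated cells. H2O2 gave 3 higher and 2 lower genes in TβRIIflox/flox PT cells, beside 4.43% and 2.27% of all genes, led by Ccnd1 (−1.51) and Egr1 (0.88). The TβRII-/- PT cells had 2 higher and 2 lower, beside 3.66% and 3.26%, led by Etv1 (1.47) and Ccnd1 (−0.92).

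**Figure D4:**
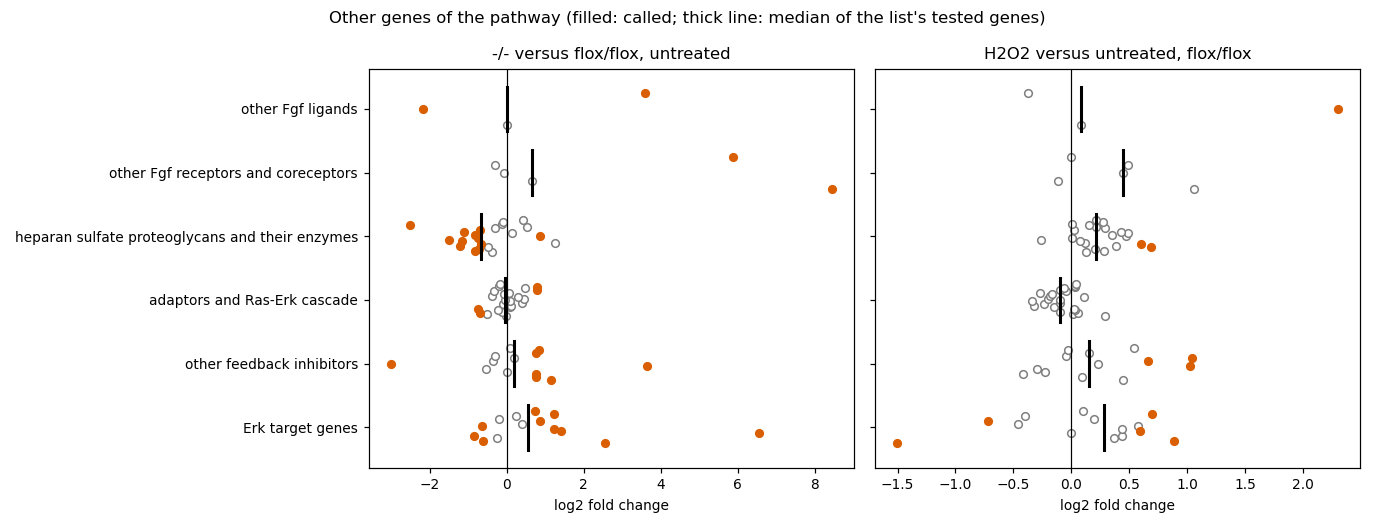
Log2 fold changes from edgeR (x axis, own scale in each panel) of the tested genes of 6 pathway lists (y axis) between untreated genotypes (left) and between H2O2 and no treatment in TβRIIflox/flox PT cells (right), with filled points for called genes and a thick line at each list's median. Heparan sulfate genes lie mostly left of 0 on the left (median −0.68), and on the left the points of Kl, Etv1 and Fgfbp1 rest on at most 3 counts per untreated TβRIIflox/flox library, so their size is no bound.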

How the data were processed

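The 12 RNA libraries, 3 in each of 4 groups taken from the sample labels, came from conditionally immortalized PT cells. Per the paper's methods and the submitters' processing notes, stranded mRNA libraries were sequenced and the authors aligned reads with STAR to GRCm38.p6 and used featureCounts for counting. The deposited values are raw counts per transcript, whole numbers without normalization, and a read is counted on every transcript that it overlaps. Whether the counting used strand is not given in the sources used here, so reads of overlapping genes cannot be told apart. Identifiers of 104820 of the 106332 transcripts were found in GENCODE M39, and 25514 genes resulted. The other 1512 held between 1.22% and 1.28% of a library's counts and were left out. The transcript with the highest total stood for its gene.

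Counts were tested in R 4.3.3 with edgeR 4.0.16 (TMM, filterByExpr on the 4 groups, glmQLFit and glmQLFTest, a mean for each group). Genes were called at a Benjamini-Hochberg adjusted p under 0.01 and a fold change of at least 1.5, and interactions at an adjusted p under 0.05. The methods name DESeq2, which was run as an alternative (version 1.42.0), and the test was checked on simulated counts. The genes, the 6 pathway lists and the marker lists were chosen with earlier results of these data known. Genes named from a list are, per comparison, the 3 called genes with the largest log2 fold change between genotypes and the 2 largest for H2O2, and the genes most like each of the 10 are the 2 with the highest Pearson's r. Further list genes were named after their values had been seen. The motifs were also chosen after the results were seen. Other alternatives were DESeq2's size factors, no filter or a minimum of 10 counts in every library, a replicate block, only the groups compared, sums over transcripts, other limits, and each library left out in turn. Intervals and floors of counts cover counting error only. Replicates differed by more than sampling noise, with a chi-square per gene of 3.52 to 12.1. Sequences are from RefSeq (GRCm38.p6), and coordinates were not converted. Tables were joined with Python 3.11.15.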

Additional observations from a re-analysis of the deposited data

Results flagged for a closer look

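The H2O2 response of Fgfr3 differed between the genotypes by a test of the difference itself. On the log2 scale the response of TβRII-/- PT cells minus that of TβRIIflox/flox PT cells was −1.49 (edgeR adjusted p = 0.00152, n = 3 libraries per group). Fgfr3 was higher with H2O2 in 3 of 3 TβRIIflox/flox libraries, whereas the TβRII-/- libraries overlapped. The difference was between −1.68 and −1.37 over 18 alternatives, with adjusted p values between 2.63e-04 and 0.00632. The cause was not tested.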

How the results depend on the processing

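Over the settings other than leaving out a library, 269 of 272 log2 fold changes of the 8 tested genes kept their direction and side of the limits. Counts of called genes and the settings with other limits are not among these 272 values. The 8 tested genes held 5 called for H2O2 in TβRIIflox/flox and 5 in TβRII-/- PT cells with an adjusted p under 0.05 and no fold change limit, beside 41.6% and 39.6% of all genes under that rule, in place of 3 and 1, since genes under that limit then count. Without a filter on low counts, 2 genes were called for the interaction (Fgfr3, and Fgf1 at an edgeR adjusted p of 0.0401), beside 7.97% of all genes. When single libraries were left out, between 1 and 3 genes were called for H2O2 in TβRII-/- PT cells and between 1 and 2 for the interaction, and the counts of the other comparisons stayed within 1.5 times. On sums over transcripts, 2 differences that were not called changed sign, Fgf1 between untreated genotypes (−0.0704) and the interaction of Dusp6 (−0.0114). Leaving out a library changed the sign of 5 differences, none of them called. Their ranges were −0.17 to 0.25 for Fgf1 between untreated genotypes, −0.27 to 0.10 for Fgf1 with H2O2 in TβRII-/- PT cells, −0.0407 to 0.13 for the interaction of Fgfr1, −0.12 to 0.0110 for Dusp6 with H2O2 in TβRIIflox/flox PT cells and −0.0703 to 0.0598 for the interaction of Dusp6. The cause of these changes of sign was not tested. No pairing of the libraries by the replicate numbers of the labels was detected. None of 18 same-numbered pairs had a correlation of deviations over 0.1 (range −0.101 to 0.0582). Pairs with other numbers ranged from −0.116 to 0.118. These values do not show whether same-numbered libraries were handled together. With the number as a replicate block, 4 genes were called between untreated genotypes, 6 between H2O2-treated ones, 3 and 1 for H2O2 and 1 for the interaction, the same counts as without it, and 3445 of all genes in place of 3456 between untreated genotypes. Fgf2 and Fgfr4 had at most 7 counts in a library, so no difference could be detected for them, and Fgf1 had between 11 and 50 counts.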
